A study of Homo sapiens with 6 samples.

Results

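The proteasome is the protease that breaks down most cytosolic proteins, and its core particle, the 20S, carries its catalytic sites on beta subunits. PSMB5, PSMB6 and PSMB7 are the constitutive catalytic subunits, and PSMB8, PSMB9 and PSMB10 are their counterparts in the immunoproteasome, which lymphoid and interferon-treated cells use to cut peptides for HLA class I. PSME1 and PSME2 form the PA28 activator that caps the 20S, and ERAP1 and ERAP2 are aminopeptidases that trim the peptides in the endoplasmic reticulum. These 10 genes were chosen by symbol, and all 10 were among the 31999 genes listed for HEL cells.

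HEL is a human erythroleukemia cell line. Poly(A) RNA was sequenced from 3 libraries of cells carrying a non-targeting hairpin (shCtrl) and 3 libraries of cells carrying a hairpin against TMIGD2, a costimulatory receptor (shTMIGD2). Both groups were the same cell line, transduced with lentivirus and selected with puromycin, and the labels do not say which of the study's TMIGD2 hairpins was used. The values used here are the authors' log2 CPM of each gene, read as a mean over all 6 libraries. CPM is a read count relative to all counted reads of its library. A mean over both groups shows how abundant a transcript was in these cells, but not whether it changed on TMIGD2 knockdown, and neither a spread between libraries nor a depth was known for it. TMIGD2 itself had a mean of 16.9 CPM, which is no check of the knockdown.

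The libraries carried the transcripts of the labelled cell type. All 7 erythroid markers examined lay between 45.8 and 846 CPM, and the 3 megakaryocytic markers lay between 58.1 and 1490.0 CPM. The 3 fibroblast markers lay between 0.0946 and 0.574 CPM, the 2 epithelial markers listed between 0.169 and 0.268 CPM, and CD3G, of the T cell receptor complex, was at 0.0789 CPM. CD79A, a component of the B cell receptor, was at 5.01 CPM. The lowest mean in the whole list was 0.0736 CPM.

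Among the catalytic subunits, PSMB8 and PSMB9 were transcribed at levels of the same order as PSMB5 and PSMB6, whereas PSMB10 was several-fold lower than PSMB7. Levels of different genes were compared per kb, that is, as CPM divided by the length of the gene's exons. For the main value this length was the union of all annotated exons (GENCODE 44), and the length of 1 reference transcript (MANE Select) and its coding length were the alternatives. The choice mattered, because the union counts every retained intron and alternative end in the annotation. For PSMB8 the union was 3480 bases against 1124 bases for the transcript, and for PSMB9 it was 3338 against 1017 bases. For PSMB5 and PSMB6 it was only 1549 against 1044 bases and 1447 against 824 bases.

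PSMB8, the counterpart of PSMB5 with chymotrypsin-like activity, lies on chromosome 6 from 32840717 to 32844679 on the minus strand (GRCh38). Its level was 35.4 CPM per kb of union length and 109.7 CPM per kb of transcript. PSMB5 (chromosome 14, 23016543 to 23035230, minus strand) was at 58.8 and 87.2 CPM per kb on the same scales. PSMB8 thus made up 37.6% of the summed level of this pair by union length, but 55.7% by transcript length and 56.3% by coding length. The order of PSMB8 and PSMB5 was therefore not settled by these data.

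PSMB9, the counterpart of PSMB6, lies beside PSMB8 on the opposite strand of chromosome 6 (32844136 to 32859851 by its outermost annotated exons, plus strand). Its level was 39.6 CPM per kb of union length and 130.1 CPM per kb of transcript. PSMB6 (chromosome 17, 4796144 to 4798502, plus strand) was at 56.7 and 99.6 CPM per kb. PSMB9 made up 41.1% of the summed level of this pair by union length, 56.6% by transcript length and 63.8% by coding length, so that its order against PSMB6 also turned with the length used.

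PSMB10, the counterpart of PSMB7 with trypsin-like activity, stood apart. It lies on chromosome 16 (67934506 to 67936864, minus strand) and was at 12.1 CPM per kb of union length, 20.2 CPM per kb of transcript and 24.1 CPM per kb of coding length. PSMB7 (chromosome 9, 124353465 to 124415444, minus strand) was at 83.0, 150.9 and 178.7 CPM per kb. PSMB10 thus lay 6.85-fold below PSMB7 by union length and 7.48-fold below it by transcript length. Its share of the pair was between 11.7% and 12.7% by union, transcript and coding length and with no length correction. The 3 constitutive subunits lay within 1.46-fold of each other per kb of union length, whereas the 3 immunoproteasome subunits spanned 3.27-fold. These spans were 1.73-fold and 6.45-fold per kb of transcript and 1.56-fold and 8.37-fold per kb of coding length. Within the immunoproteasome set PSMB9 held 45.5%, PSMB8 40.6% and PSMB10 13.9% of the summed level by union length. The share of PSMB10 was 7.76% by transcript length and 6.43% by coding length.

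**Figure D1:**
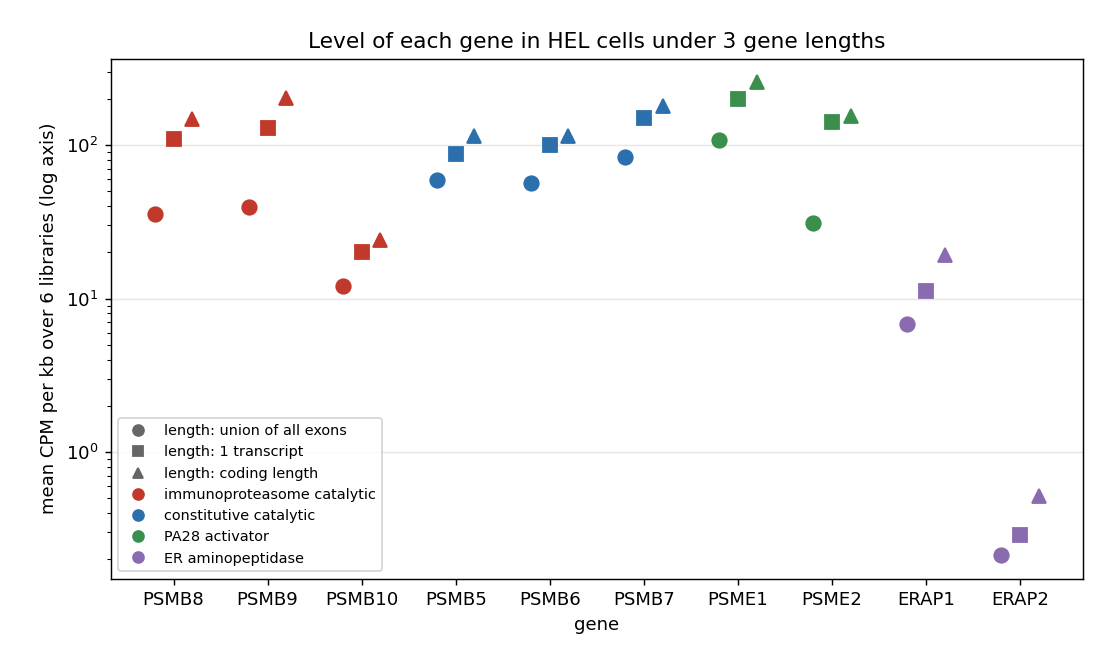
Mean CPM per kb over the 6 libraries (log axis) of each of the 10 genes, with the level per kb of union exon length as circles, of 1 transcript as squares and of coding length as triangles, coloured by role. PSMB10 sits below the other 5 catalytic subunits by each length, and ERAP2 is the lowest gene at 0.214 to 0.516 CPM per kb.

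The low value of PSMB10 went together with a feature of the annotation. Of the 977 bases of its transcript, 548 (56.1%) were also exon of ENSG00000261884, a readthrough gene on the same strand that also spans part of the neighbouring CTRL gene. No exon base of the PSMB8, PSMB9, PSMB5, PSMB6 or PSMB7 transcripts was shared on the same strand. Reads in shared bases can be left out when reads are counted per gene, so the values of genes that overlap in this way are uncertain. The overlaps were read from GENCODE 44, and whether the annotation used for counting held these readthrough genes is not known. The values per unshared base bear on the levels only if it did. When the count was divided by the 429 unshared bases only, PSMB10 was at 45.96 CPM per kb, 3.28-fold below PSMB7, and its share of the pair was 23.4%. The same was seen outside the catalytic subunits. PSMA1, PSMA2 and PSMA6, subunits of the alpha rings, shared 67.0%, the whole and 81.4% of their transcript with readthrough genes, and together with PSMB10 they were the 4 lowest of the 17 genes of the 20S core compared, at 19.1, 2.63, 5.75 and 20.2 CPM per kb of transcript. The next was PSMA5 at 48.9 CPM per kb. PSMA1, PSMA6 and PSMA5 are named here on the strength of their values, outside the rule for named genes. Over all protein coding genes, the 503 with at least 50% of their transcript shared on the same strand (3.08%) had a median of 0.475 CPM per kb, against 3.87 CPM per kb for the 14344 with no shared base. The part of this overlap in the level of PSMB10 was not tested.

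**Figure D2:**
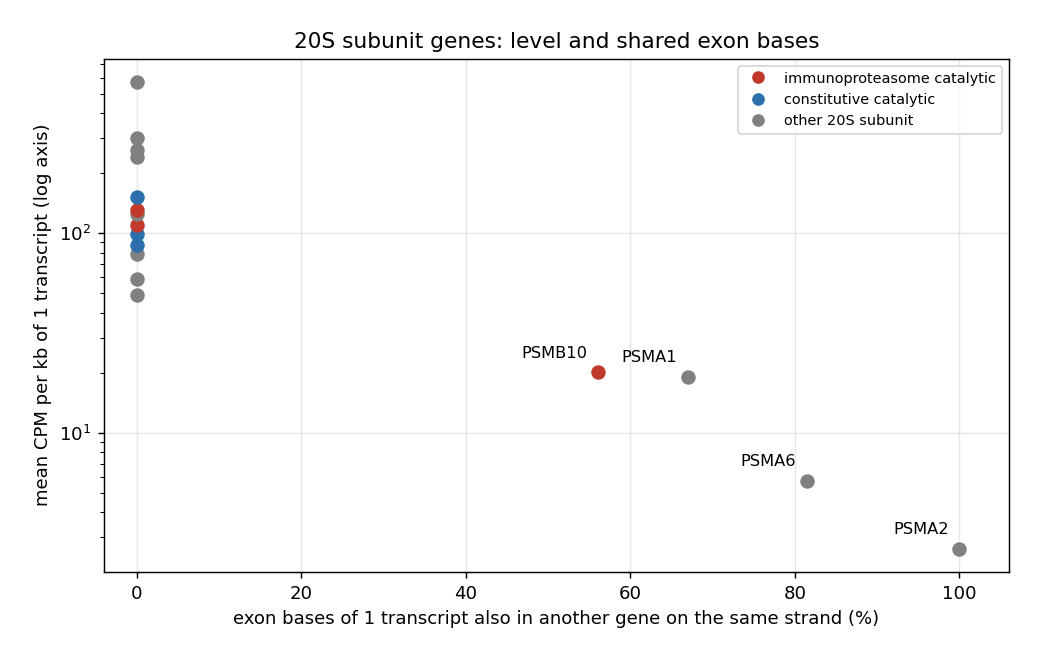
Mean CPM per kb of 1 transcript (log axis) of the 17 genes of the 20S core against the percentage of the transcript's bases that another gene on the same strand also holds. PSMB10, PSMA1, PSMA6 and PSMA2, at 56.1% and more, lie below the 13 genes without a shared base.

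Summed over the 3 subunits, the immunoproteasome set was at 87.2 CPM per kb of union length and the constitutive set at 198.6 CPM per kb, which puts 30.5% of the catalytic transcripts in the immunoproteasome set. By transcript length this share was 43.5%, by coding length 47.8%, and with unshared bases 45.8%. The constitutive set was the higher by each length, and the difference ranged from 1.09-fold to 2.28-fold. By transcript length, coding length and unshared bases, however, PSMB8 and PSMB9 were above PSMB5 and PSMB6. By these lengths the order of the sums thus rested on PSMB10 against PSMB7 alone, and the value of PSMB10 is uncertain because of its shared exon bases. No error can be put on these shares, because each gene has a single value.

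**Figure D3:**
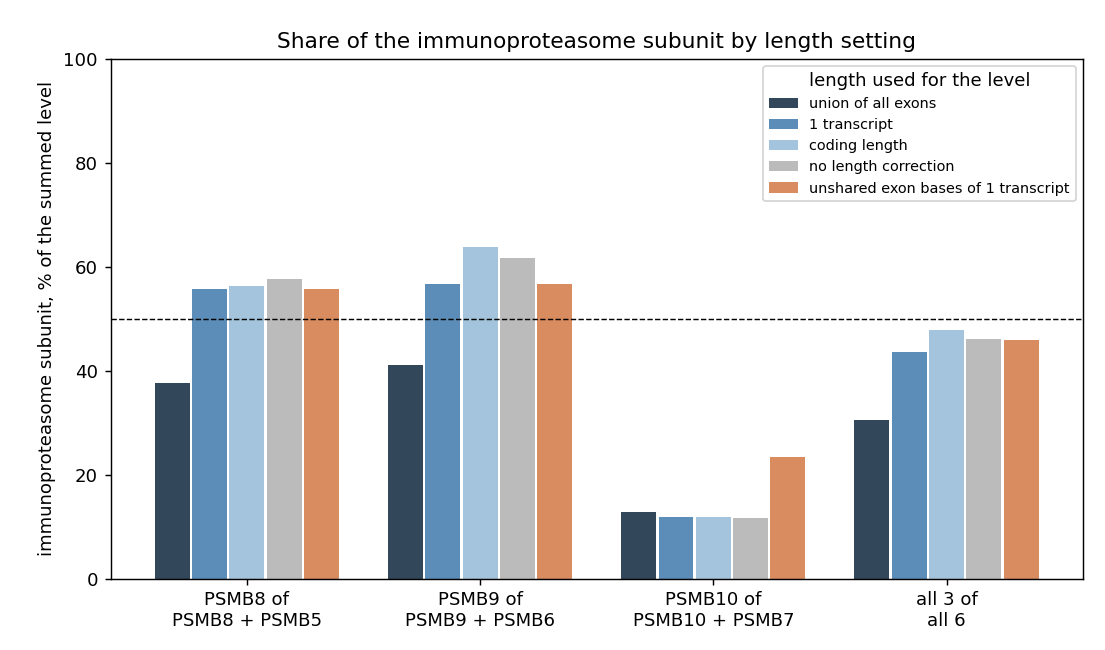
Percentage of the summed level that the immunoproteasome subunit held in each pair, and that the 3 subunits held of all 6, with bars for each length used and a dashed line at equal levels. The bars of PSMB8 and PSMB9 lie on both sides of the line, from 37.6% to 57.5% and from 41.1% to 63.8%, while those of PSMB10 stay at or under 23.4%.

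PSME1 was the most abundant of the 10 genes per kb, and both subunits of PA28 were well expressed. PSME1 (chromosome 14, 24136163 to 24138967, plus strand) was at 108.2 CPM per kb of union length and 199.1 CPM per kb of transcript. PSME2, which lies 4394 bases away on the opposite strand (24143362 to 24147570), was at 31.2 and 140.9 CPM per kb. PSME1 was the higher of both by each length, by 3.47-fold per kb of union length and by 1.41-fold per kb of transcript. The union length of PSME2, 3582 bases against 793 bases for its transcript, sets this range.

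ERAP1 and ERAP2 differed most. ERAP1 (chromosome 5, 96760810 to 96808100, minus strand) was at 6.85 CPM per kb of union length, and ERAP2, its neighbour on the plus strand (96875986 to 96919703), was at 0.214 CPM per kb. This is a 32.1-fold difference, and it was 38.8-fold per kb of transcript and 37.4-fold per kb of coding length. ERAP2 was not at the bottom of the list, with a mean of 1.49 CPM where the lowest gene had 0.0736 CPM. On the opposite strand, 640 bases (13.2%) of the ERAP1 transcript were exon of other genes, among them CAST. Without those bases ERAP1 was at 12.95 CPM per kb of transcript, and its difference from ERAP2 was 44.7-fold. These values bear on the level only if reads were counted without regard to strand, which is not known. The libraries were prepared with a directional (strand-specific) workflow.

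Placed among all protein coding genes by level per kb of union length, 7 of the 10 genes were above percentile 90. PSME1 was at percentile 98.2, PSMB7 at 97.4, PSMB5 at 96.2 and PSMB6 at 96.0. PSMB9 followed at 93.8, PSMB8 at 92.9 and PSME2 at 91.8. PSMB10 was at percentile 79.0 and ERAP1 at 68.2, while ERAP2 was below the median at 30.4. By mean CPM with no length correction, 7 of the 10 genes were in the top 10% of all genes listed, above 74.5 CPM, but only 3 of the 10 were in the top 10% of protein coding genes.

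The rest of the proteasome gave the frame for these levels. PSMB1 to PSMB4, the beta subunits with no catalytic site, lay between 77.0 and 170.7 CPM per kb of union length, with PSMB4 at 129.8. Of the alpha subunits, PSMA7 was the highest at 314.5 and PSMA2 the lowest at 0.450 CPM per kb, and PSMA4 was at 37.1. The median of these 11 structural subunits was 38.5 CPM per kb, of which PSMB8 was at 91.95%, PSMB9 at 102.9%, PSMB10 at 31.5%, PSMB5 at 152.6%, PSMB6 at 147.3% and PSMB7 at 215.6%. In the same order of genes, the percentages were 139.3%, 165.2%, 25.6%, 110.8%, 126.5% and 191.6% by transcript length, and 49.9%, 67.5%, 8.07%, 38.7%, 38.4% and 59.9% by coding length. PSMB10 was thus below this median by each length, while the side on which the other 5 stood depended on the length. The 11 subunits include PSMA1, PSMA2 and PSMA6, the lowest of them by each length, whose values are uncertain because of shared exon bases. Without these genes the median would be higher and each percentage lower. The other catalytic subunits would then also lie below the median by each length. PSMB11, the catalytic subunit of the thymus, was at 0.0569 CPM per kb. Its mean of 0.105 CPM was near the lowest of the whole list, 0.0736 CPM. It was not among the 17 genes of the 20S core compared above for shared bases.

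The 19S cap, which unfolds proteins and feeds them to the 20S, had a median of 24.7 CPM per kb over its 6 ATPases and 23.1 CPM per kb over 13 other subunits. PSMC3 and PSMC5 were at 82.5 and 37.4 CPM per kb and PSMC1 at 8.77. PSMD2 and PSMD3, scaffold subunits of the 19S base and lid, were at 66.8 and 60.5 CPM per kb and PSMD7 at 18.1. Among the other regulators of the 20S, PSME3, the nuclear homologue of PSME1 and PSME2, was at 57.4 CPM per kb of union length, 92.9 per kb of transcript and 388.0 per kb of coding length. It lay between PSME1 and PSME2 by union length, below both by transcript length and above both by coding length. The activator PSME4 was at 25.95 and the inhibitor PSMF1 at 10.55 CPM per kb. Of the assembly chaperones, PSMG1 was at 88.0 and POMP, which the immunoproteasome and the constitutive 20S both need to mature, at 23.9 CPM per kb, and PSMD9 at 0.798. Of 7 other peptidases, NRDC was at 42.2, BLMH at 37.1 and THOP1, which degrades peptides in the cytosol, at 8.39 CPM per kb.

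**Figure D4:**
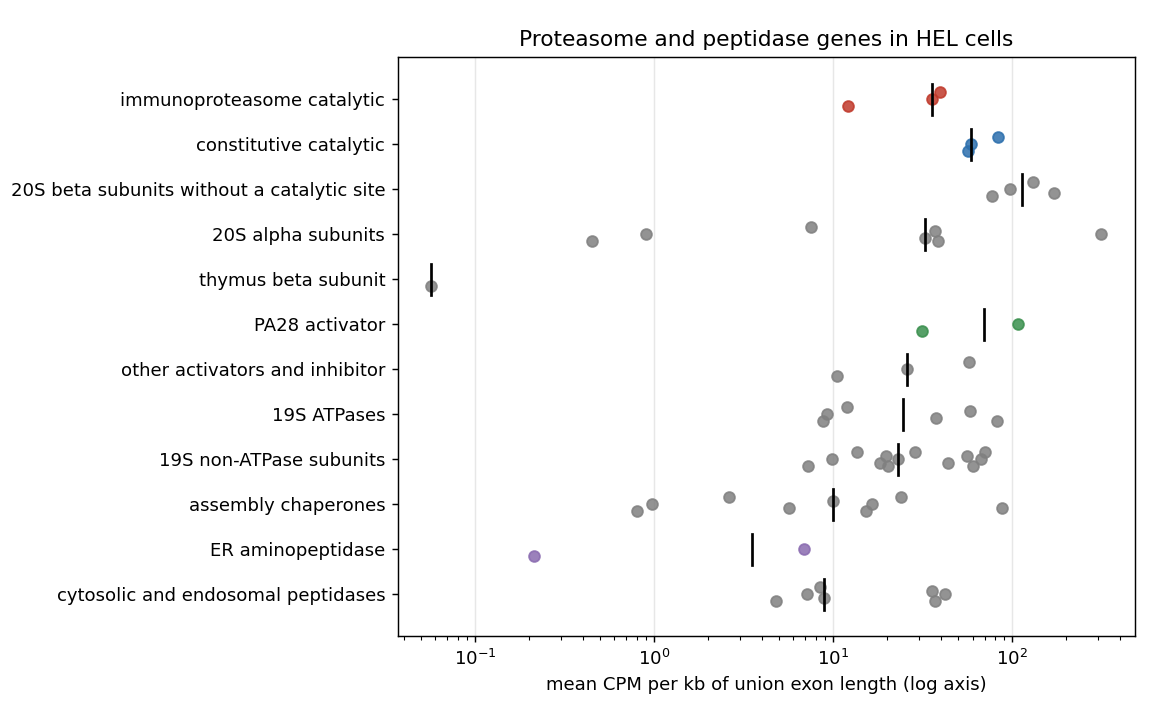
Mean CPM per kb of union exon length (log axis) of each gene in 12 groups of proteasome and peptidase genes, with a bar at the median of each group. The immunoproteasome subunits have a median of 35.4 and the constitutive ones of 58.8 CPM per kb, both above the median of the 19S groups. Per kb of transcript the order of these 2 medians turned, with 109.7 and 99.6 CPM per kb.

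By the percentage of identical bases, each immunoproteasome subunit was closest in coding sequence to the constitutive subunit it replaces. Of the 15 pairs among the 6 catalytic subunits, PSMB9 and PSMB6 were identical at 66.4% of aligned bases and PSMB8 and PSMB5 at 66.3%. PSMB10 and PSMB7 were identical at 64.2%, and PSMB10 was less like each of the other 4. The longest run of bases that PSMB8 shared with PSMB5 was 22 bases, and that of PSMB9 with PSMB6 was 16. That of PSMB10 with PSMB7 was 14 bases, under the 15 that PSMB10 shared with PSMB9. Of the processed pseudogenes listed, PSME2P2 was 96.4% identical to the PSME2 transcript with a shared run of 123 bases, and it had 1.81% of the CPM of PSME2. PSME2P6 was 96.6% identical and had 0.202%, and PSMB7P1 was 84.2% identical to PSMB7 and had 0.0992%. Reads of PSME2 and its pseudogenes may thus not be told apart in full. PSMB8-AS1, an antisense transcript at the start of PSMB8, had 10.9 CPM, and it overlapped 17.3% of the union of PSMB8 exons but no base of its reference transcript.

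Promoter sequences (RefSeq, GRCh38.p14, 250 bases before to 50 bases after a start site) were at hand for 8 of the 10 genes, in 12 windows. They were searched on both strands for GAAA, any 2 bases and GAAA again, a core of the element through which interferon acts on its target genes. It was found in 6 of the 12 windows and in 6 of the 8 genes, against 3.57% of all 35116 promoters. PSMB6 and PSMB7 had no sequence at hand, so PSMB5 was the only constitutive subunit searched. The matches are shown on each gene's own strand with 10 flanking bases. Capitals mark the motif, which reads with TTTC in place of GAAA where it lies on the other strand.
PSMB8 (chr6:32844032-32844061, minus strand): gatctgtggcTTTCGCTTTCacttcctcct
PSMB10 (chr16:67936852-67936881, minus strand): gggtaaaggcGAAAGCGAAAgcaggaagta
PSME1 (chr14:24136189-24136218, plus strand): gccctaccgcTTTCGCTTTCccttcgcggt
PSME2 (chr14:24146619-24146648, minus strand): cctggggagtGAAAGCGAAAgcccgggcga
ERAP1 (chr5:96807924-96807953, minus strand): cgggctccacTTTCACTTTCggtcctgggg
ERAP2 (chr5:96876460-96876489, plus strand): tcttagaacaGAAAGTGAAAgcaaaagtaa

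In the matching window of each of the 6 genes, the first base of the motif lay close to that window's start site. The position ranged from 30 bases before the start site in ERAP2 to position 6 of the transcript in PSME1. PSMB8, PSMB10, PSME1 and PSME2 had GC between both GAAA, read along the motif, and ERAP1 and ERAP2 had GT. The windows of PSMB9 and PSMB5 held no match, and neither did the other window of PSMB8, ERAP1 and ERAP2. The window of PSMB9, at 32853942 to 32854241, lies inside the gene and not at its outermost annotated exon. The matching windows of PSMB8 (32843998 to 32844297), PSME2 (24146561 to 24146860) and ERAP2 (96876250 to 96876549) also lie inside their genes. For PSMB8 and ERAP2, the window at the outermost annotated start is the one without a match. Of the other motifs searched, TTCNNNGAA, bound by STAT factors, was found in PSMB8 and PSMB5 (7.66% of all promoters). TGACNNNGC, the core of the antioxidant response element, was found in PSMB9, PSME1 and PSME2 (13.3% of all promoters). CCAAT was found in PSMB9, PSMB5 and ERAP1 (34.6%), and GGGCGG in PSMB8, PSMB9, PSME1 and PSME2 (45.0%). A match of letters does not show that a factor was bound.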

How the data were processed

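RNA-seq of 3 shCtrl and 3 shTMIGD2 libraries of HEL cells was analysed, with groups taken from the labels. Per the labels and methods, the authors aligned reads to hg38 with STAR 2.6.1b and counted fragments with HTSeq 0.6.1 on a refSeq annotation. The libraries were prepared with a directional workflow, but the strand and overlap settings of the counting are not given in the sources used here. The table also lists clone names (AC and digits), and whether the refSeq annotation was the one used for this table was not tested. The authors' deposited table has 1 row for each of 31999 genes. Its log2 CPM, with 1 value per gene and no sample name, was used and read as a mean over the 6 libraries. How the authors averaged it, and whether a small count was added first, is not given in the sources used here. The lowest values are the most open to this. Its other columns hold the authors' own comparison of shTMIGD2 with shCtrl (fold change, F, p-value and FDR) and were not used, so no comparison of the groups was made here. The planned test on counts was not run, since the table has no value per library, and the depth is unknown.

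CPM was computed as 2 to the power of the mean log2 CPM and divided by exon length from GENCODE 44 (GRCh38, the authors' build), to which 22987 gene names matched by symbol. Percentiles were taken over all rows, over the 14000 rows whose mean log2 CPM was at least 0, or over 16341 protein coding rows. Python 3.11.15, pandas 2.3.3 and Biopython 1.88 (global alignment of coding sequences, local for pseudogenes) were used. The functions were checked on made-up input with known answers. The members, gene lists and motifs were chosen with earlier results of these data known. Of 53 list symbols, 50 were listed in the table. The text names all members, the 2 highest and the lowest gene of each list by mean log2 CPM, pseudogenes and antisense genes of members, and TMIGD2, beside markers, overlapping genes and exceptions stated in the text. No gene's value has an error, because it is a single mean. The value of 1 marker gene is not reported here.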

Additional observations from a re-analysis of the deposited data

How the results depend on the processing

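The main values, per kb of union exon length, are given as log2 differences of levels and were -0.73 for PSMB8 against PSMB5, -0.52 for PSMB9 against PSMB6, -2.78 for PSMB10 against PSMB7, -1.19 for the summed sets, 1.79 for PSME1 against PSME2 and 5.002 for ERAP1 against ERAP2. With the length of 1 transcript, the first 2 turned to 0.33 and 0.39, and the others were -2.90, -0.38, 0.50 and 5.28. With coding length, the first 2 were 0.37 and 0.82, and the others -2.89, -0.13, 0.72 and 5.22. With no length correction, they were 0.44 and 0.69, then -2.91, -0.22, 0.78 and 5.19. Dividing by exon bases not shared on the same strand was chosen after seeing the data and gave 0.33 and 0.39, then -1.72, -0.24, 0.50 and 5.28. Bases not shared on either strand gave 0.33 and 0.39, then -1.72, -0.24, 0.50 and 5.48. The sign of the first 2 turned in each alternative because the union of exons is longer, relative to the transcript, in PSMB8 and PSMB9 than in PSMB5 and PSMB6. The other 4 kept their sign in the alternatives listed. The number of the 10 genes in the top 10% went from 7 of all genes listed to 3 among protein coding genes (PSMB9, PSMB7 and PSME1). No paired analysis was possible because each gene has only 1 mean over all libraries, and leaving out a library could not be done for the same reason. Depth is unknown, so no limit from counting can be given.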
